A study of Mus musculus with 19 samples.

Results

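Proteasome genes were followed in the left ventricle of mice after pressure overload. Members were the genes whose symbol starts with Psma, Psmb, Psmc, Psmd, Psme, Psmf or Psmg followed by a digit. They were measured by probe sets that map to exactly 1 symbol, and the brightest probe set of a gene, by its average across the 19 arrays, represented it, provided that its log2 signal was above 4 in at least 5 arrays. This gave 49 symbols, of which 47 passed the filter, among 10733 genes tested. Psma8 and Psmb11, known as testis and thymus forms, did not pass it (means of 2.63 and 2.19 over all arrays). Psme2, the partner of Psme1, is represented by a probe set shared with Psme2b and is not reported here. The 47 genes comprised 14 of the constitutive 20S core, 17 of the 19S regulatory particle, 4 interferon-inducible members (Psmb8, Psmb9, Psmb10 and Psme1), 3 other activators or inhibitors, 7 assembly chaperones, and Psmc3ip and Psme3ip1, which carry such a symbol but are not subunits.

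The samples were left ventricular myocardium of 19 male C57BL/6 mice, operated at 7 weeks of age and studied 4 weeks later, with 1 Affymetrix array per mouse. Of these, 5 were sham-operated controls, 7 had banding of the aorta without heart failure (non-failing banded) and 7 had banding with heart failure (failing banded). No transgene or drug is named in the labels, and the criterion for heart failure is not given there.

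The 26S proteasome degrades proteins that carry ubiquitin chains. Its 20S core is a barrel of alpha rings, which form the gate, and beta rings, which hold the cutting sites on Psmb5, Psmb6 and Psmb7. The 19S particle caps the barrel: its ATPases (Psmc genes) unfold the substrate and its scaffold, receptor and lid subunits (Psmd genes) bind it and remove ubiquitin. Under interferon the cutting subunits can be replaced by Psmb8, Psmb9 and Psmb10, which gives the immunoproteasome, and Psme1 with Psme2 forms the PA28 cap, an activator that works without ubiquitin. In the heart, where most muscle cells are not renewed, the proteasome takes part in the turnover of sarcomere and mitochondrial proteins.

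Sequence before the start site is shown for 3 of the inducible genes: Psme1 and Psmb10, the inducible members that passed the test and did so in opposite directions, and Psmb8, which held a motif match. The sequences are the 250 bases before the annotated start, from RefSeq on GRCm38.p6, written 5′ to 3′ on the strand of the gene, with a motif match in capitals. Psme1 lies on the plus strand (chr14:55578244-55578493), Psmb10 on the minus strand (chr8:105938393-105938642) and Psmb8 on the plus strand (chr17:34197945-34198194).
Psme1: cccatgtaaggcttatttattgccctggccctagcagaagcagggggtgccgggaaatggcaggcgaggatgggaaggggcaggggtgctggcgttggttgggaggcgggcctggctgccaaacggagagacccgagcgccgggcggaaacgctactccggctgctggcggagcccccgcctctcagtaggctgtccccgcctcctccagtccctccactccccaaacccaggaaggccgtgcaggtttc
Psmb10: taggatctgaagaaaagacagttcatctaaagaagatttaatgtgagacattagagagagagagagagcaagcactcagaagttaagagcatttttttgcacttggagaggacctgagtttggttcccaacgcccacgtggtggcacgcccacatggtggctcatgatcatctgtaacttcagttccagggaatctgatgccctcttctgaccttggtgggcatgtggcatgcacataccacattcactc
Psmb8: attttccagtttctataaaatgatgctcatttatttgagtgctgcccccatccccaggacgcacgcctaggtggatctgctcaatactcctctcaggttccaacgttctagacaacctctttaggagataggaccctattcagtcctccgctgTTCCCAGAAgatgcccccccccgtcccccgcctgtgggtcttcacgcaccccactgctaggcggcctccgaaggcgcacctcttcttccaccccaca

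Of the 47 genes, 40 had an entry in the RefSeq promoter table. A window of 300 bases, from 250 before to 50 after the start, was searched on both strands for 3 motifs. The interferon-stimulated response type, GAAA followed by GAAA after a gap of any 2 bases, was found in 5 of the 40 (12.5%; Psmb3, Psmd4, Psmd9, Psme1 and Psmg4) and in 3.44% of all 32851 promoters. The match in Psme1 began 10 bases after the start and so lies outside the printed run. TTCNNNGAA, of the gamma-activated site type, was found in 3 of the 40 (7.5%; Psmb8, Psmd2 and Psmg1) against 8.3% of all promoters. In Psmb8 it began 97 bases before the start. TGACNNNGC, of the antioxidant response type, was found in 6 of the 40 (15%; Psmb5, Psmb6, Psmc6, Psmd12, Psmd9 and Psme4) against 12.4%. A member gene was counted when any of its promoter entries matched, while the share of all promoters counts single entries. The shares are therefore not in the same unit, and a gene with several entries has more chances of a match. These are matches of letters in these windows and were not tested as binding sites.

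The tissue label was compared with cell markers. All 10 cardiomyocyte markers were measured, with a summed linear signal of 408000 to 450000 over the 19 arrays. In failing hearts against sham 4 of the 10 were lower (Myh6, Tnni3, Ryr2 and Pln, -0.27 to -0.15) and 2 higher (Mybpc3, 0.27, and Des, 0.76). Together these were 60%, beside 39.3% of all tested genes. Markers of other cells are set beside the share of all tested genes that passed. This share was 17.4% in non-failing and 39.3% in failing mice against sham, and 9.48% between the banded groups. Of 9 fibroblast markers, 6 were past the threshold and higher in non-failing banded mice than in sham (66.7%). In failing banded mice 8 were higher than in sham (88.9%) and 4 were higher than in non-failing mice (44.4%). Of 10 endothelial markers 2 were higher in non-failing (20%) and 4 in failing mice (40%) against sham. In failing against non-failing mice 1 was lower (10%), so the endothelial shares were near those of all tested genes. Of 8 smooth muscle and pericyte markers 3 were higher and 1 lower in each banded group against sham (50% in each). In failing against non-failing mice 1 of the 8 was lower (12.5%). Of 3 atrial markers Myl7 alone passed, and it was lower in failing than in non-failing mice (-4.93, limma adjusted p = 0.0457). Its SD was 4.40 in failing mice, and Sln and Myl4 did not pass (adjusted p = 0.0968 and 0.111). The atrial signal varied widely between single arrays. Its linear sum was 536 to 13300 in sham, 1210 to 28800 in non-failing and 96.4 to 42200 in failing mice. The arrays also differed in technical controls. A probe set for 18S ribosomal RNA was high on 6 arrays (9.03 to 11.76 on the log2 scale; sham mice 1 to 3 and non-failing mice 5 to 7) and low on the other 13 (5.14 to 7.62), which include all 7 failing mice. The BioC spike-in control was 8.60, 8.70 and 9.20 on non-failing mice 5 to 7. On all other arrays it was 10.18 to 10.99. Within the high 18S set, the non-failing and sham arrays therefore differed in this control. The difference between the 3′ and 5′ actin controls, a sign of RNA quality, was 0.943 to 1.02 in sham, 0.672 to 0.898 in non-failing and 0.661 to 0.905 in failing mice, so that sham and banded arrays did not overlap. The animal IDs in the labels fall into 3 series, each with mice of all 3 groups; in the first, the sham and non-failing arrays are those of the high 18S set and the failing arrays are in the low one. The part of these differences in the results was not tested except where values are given. In whole tissue, fewer cells of a type and less RNA per cell cannot be told apart.

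The 47 genes varied little. All chosen probe sets were above 4 on all 19 arrays, and the median standard deviation within groups was 0.121, against 0.182 over all tested genes. It ran from 0.0456 for Psmd12, a lid subunit, to 0.27 for Psmb9. Differences are given below as differences of group means on the log2 scale with the standard error (SE) of the limma fit, and a gene passed when its p-value, adjusted by the Benjamini-Hochberg method over all 10733 genes, was under 0.05. Between non-failing banded and sham mice, 38 of the 47 genes lay within 0.2 of no difference, between failing banded and sham mice 34, and between the banded groups 41. The median size of the difference, regardless of sign, was 0.07, 0.10 and 0.11 for the members and 0.15, 0.21 and 0.12 over all tested genes. Both comparisons with sham share the same 5 control mice.

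**Figure D1:**
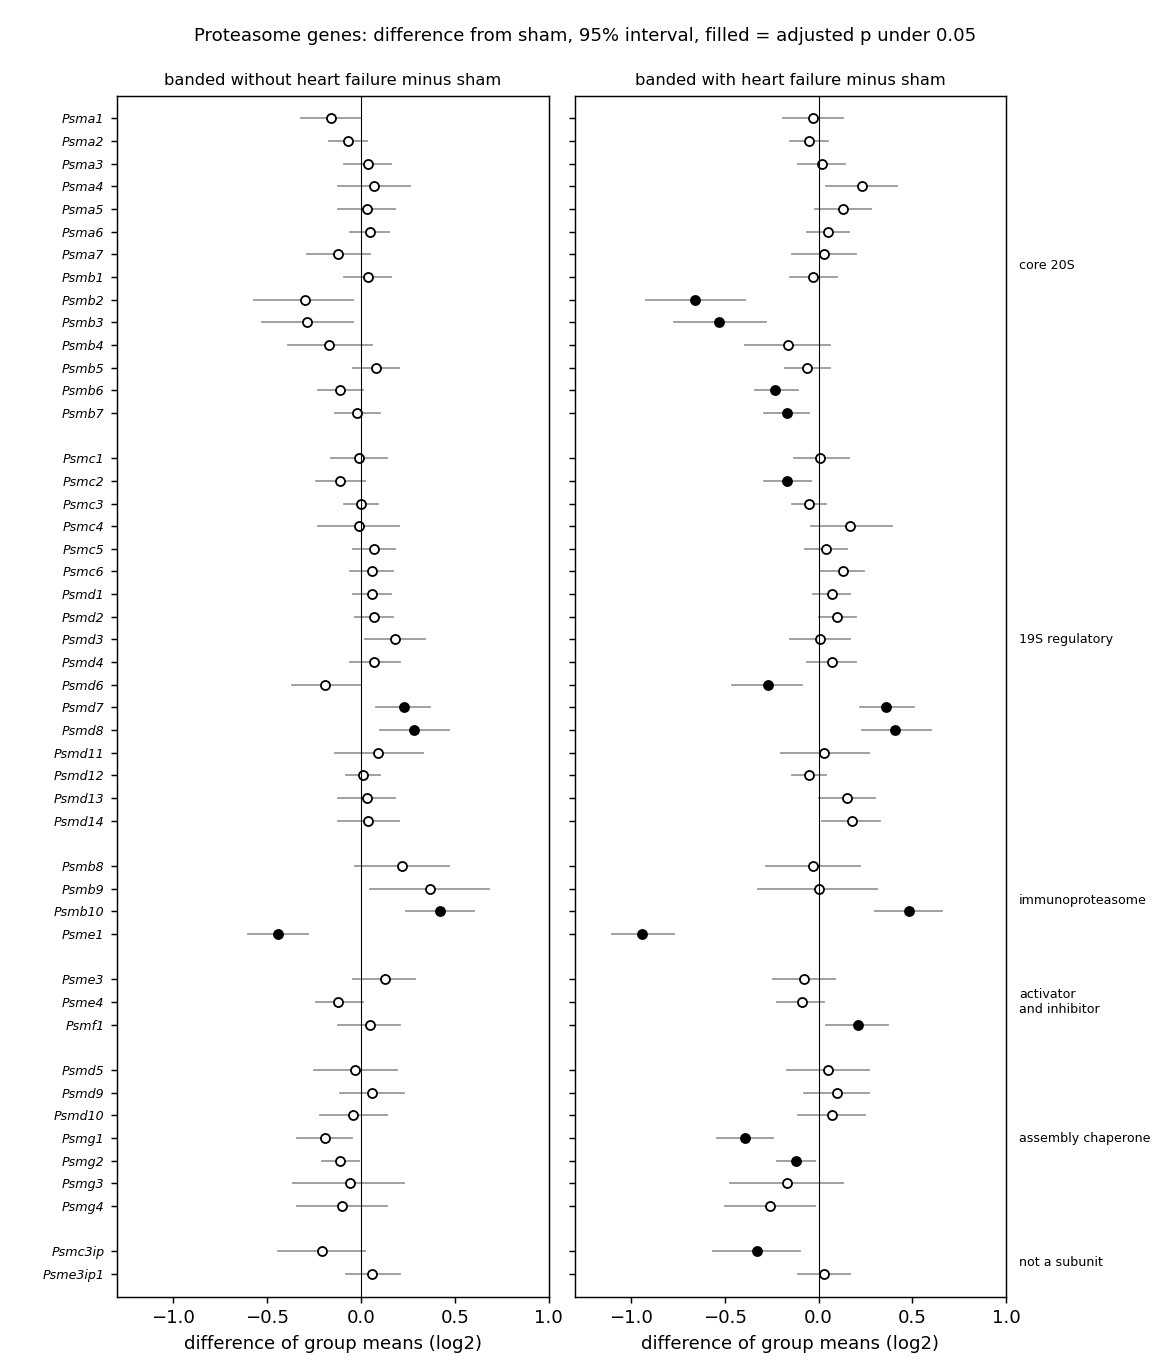
Difference from sham (log2, x axis) of each of the 47 proteasome genes (y axis, grouped by class) in non-failing and in failing banded mice; points are differences of group means, lines are 95% intervals, and filled points have an adjusted p under 0.05. Most points lie within 0.2 of 0, and the lowest is Psme1, at -0.44 in non-failing and -0.94 in failing mice.

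The banded hearts without failure showed few proteasome genes apart from sham. Psmb10, an inducible cutting subunit, and the lid subunits Psmd7 and Psmd8 were higher, and Psme1, a subunit of the PA28 cap, was lower. These were 4 of 47 genes (8.51%; 3 higher and 1 lower), while 17.4% of all tested genes passed (10.8% higher and 6.53% lower), so the share among the proteasome genes was below the background. None of the 14 core genes passed, with 2 at an unadjusted p under 0.05 in limma, and 2 of the 17 regulatory genes did. The median difference was -0.04 for the core and 0.06 for the 19S genes, beside 0.02 for all tested genes. The count of higher members was 1 without any one of sham mice 1, 2 and 3 or non-failing mice 1 and 3. In these runs the higher calls over all tested genes were fewer too, at 731 to 982 against 1164 with all arrays. The count of lower members was 3 without sham mouse 4 or non-failing mouse 7, and 2 without failing mouse 5, which enters through the shared estimate of spread. Over all tested genes the lower calls in these runs were 914, 611 and 811, against 701 with all arrays.

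In failing banded hearts more members differed from sham. Psme1, 4 beta subunits of the core (Psmb2, Psmb3, Psmb6 and Psmb7), the 19S subunits Psmc2 and Psmd6, the assembly chaperones Psmg1 and Psmg2, and Psmc3ip were lower than in sham, while Psmb10, Psmd7, Psmd8 and Psmf1 were higher. These were 14 of 47 genes (29.8%; 4 higher and 10 lower), against 39.3% of all tested genes (20.4% higher and 18.9% lower), so the share among the proteasome genes was again below the background. The members did not shift one way: 24 of 47 had a positive difference, and their median was 0.01, as over all tested genes. Of the lower members, 6 passed without sham mouse 2 and 1 passed with the actin difference as a covariate, whose values in sham and banded arrays do not overlap. The low 18S set alone (2 sham, 4 non-failing and 7 failing) gave 5. Over all tested genes the lower calls were fewer in these runs as well, at 1741, 1107 and 1208 against 2027.

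Failing and non-failing banded hearts differed in 1 of the 47 genes (2.13%), Psme1, which was lower in failing hearts. Of all tested genes 9.48% passed in this comparison (3.83% higher and 5.65% lower), and 13 members had an unadjusted p under 0.05 in limma. The median difference of the members was -0.02, beside -0.01 over all tested genes. The count of lower members was 2 without any one of sham mice 4 and 5, non-failing mice 2, 3 and 4 or failing mouse 3, and 3 without non-failing mouse 1. Over all tested genes the lower calls in these runs were 475 to 703, against 606 with all arrays. The count of lower members was larger in a further run. Among the mice of the first animal ID series (3 sham, 3 non-failing and 2 failing) it was 10. Over all tested genes the lower calls rose in that series too, to 1346, and 20.5% of genes passed. In that series the ribosomal RNA control was high on all non-failing arrays and low on all failing arrays. The comparison there cannot separate heart failure from this technical difference.

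Psme1 encodes the alpha subunit of the PA28 cap. Its log2 signal was 12.36, 12.47, 12.42, 12.25 and 12.41 in the 5 sham mice. In the non-failing banded mice it ran from 11.81 over a median of 11.92 to 12.16. In the failing mice it ran from 11.23 over 11.46 to 11.63. The 3 groups did not overlap, with every failing mouse below every non-failing mouse and every non-failing mouse below every sham mouse. The means were 12.38 ± 0.08 (SD, n = 5), 11.95 ± 0.12 (SD, n = 7) and 11.45 ± 0.15 (SD, n = 7). Against sham, Psme1 fell by 0.44 (SE 0.08, limma adjusted p = 0.000848), or 1.36-fold, in non-failing hearts and by 0.94 (SE 0.08, adjusted p = 7.16e-08), or 1.91-fold, in failing hearts. Between the banded groups it was 1.41-fold lower in failing hearts (-0.50, SE 0.07, adjusted p = 0.000903). The 3 calls were kept in every alternative run, with differences from sham of -0.48 to -0.35 and -1.08 to -0.85 and between the banded groups of -0.71 to -0.42. A single probe set measures the gene, so no other probe set checks it.

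Psmb10 replaces Psmb7 in the immunoproteasome. Its log2 signal was 9.75, 9.75, 9.97, 9.97 and 9.78 in sham mice, 10.05 to 10.46 (median 10.22) in non-failing mice and 10.15 to 10.55 (median 10.28) in failing mice. All 14 banded mice lay above all 5 sham mice, and the banded groups overlapped. The means were 9.85 ± 0.11 (SD, n = 5), 10.26 ± 0.15 (SD, n = 7) and 10.32 ± 0.16 (SD, n = 7). Psmb10 rose 1.33-fold in non-failing hearts (0.42, SE 0.09, limma adjusted p = 0.00278) and 1.39-fold in failing hearts (0.48, SE 0.09, adjusted p = 0.000266). The banded groups differed by 0.06 (95% interval -0.10 to 0.22, adjusted p = 0.677). In non-failing hearts the call was lost with the actin difference as a covariate (0.35, adjusted p = 0.0707) and within the low (0.42, 0.0972) and high (0.40, 0.0678) 18S sets alone.

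Psmb8, which replaces Psmb5, did not pass in any comparison. Its log2 signal was 8.72, 8.61, 9.14, 8.93 and 8.23 in sham mice, 8.68 to 9.14 (median 9.01) in non-failing mice and 8.52 to 8.85 (median 8.73) in failing mice. The differences were 0.22 (adjusted p = 0.219) and -0.03 (0.863) from sham and -0.25 (0.152) between the banded groups. All 3 groups overlapped, and sham mouse 5 was the lowest of the 19. Psmb9, which replaces Psmb6, read 7.58, 7.81, 7.99, 7.88 and 6.94 in sham mice, 7.78 to 8.28 (median 8.01) in non-failing mice and 7.27 to 7.94 (median 7.56) in failing mice. Its differences were 0.37 (limma adjusted p = 0.1), 0.00 (0.989) and -0.37 (0.0941), and the groups overlapped here too. Sham mouse 5 was again the lowest array. With the animal ID series as a block, Psmb9 passed in non-failing hearts against sham (0.39, adjusted p = 0.0339), as it did with the actin covariate (0.64, 0.0473). Between the banded groups it passed with those groups alone (-0.37, 0.0338) and without sham mouse 5 (-0.37, 0.0278). That mouse enters this comparison only through the shared estimate of spread. In the other alternative runs Psmb9 did not pass between the banded groups.

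The 4 inducible genes therefore held 1 higher and 1 lower call in each comparison with sham, at a median of 0.29 in non-failing and -0.02 in failing hearts. Without sham mouse 5 these medians were 0.14 and -0.17. Between the banded groups the median was -0.31, with 3 of the 4 negative. Leukocyte and macrophage markers were measured in full beside them: 20 of 20 were detected, none passed in the limma fit in any comparison, with 0, 3 and 1 at an unadjusted p under 0.05, and their summed linear signal was 13700 to 31300 in sham, 15400 to 18100 in non-failing and 13800 to 20500 in failing mice. Of 8 lymphocyte markers on the array, Cd79b alone passed the filter. Cd3e, Cd3d, Cd3g, Cd79a, Nkg7, Cd2 and Cd5 did not.

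**Figure D2:**
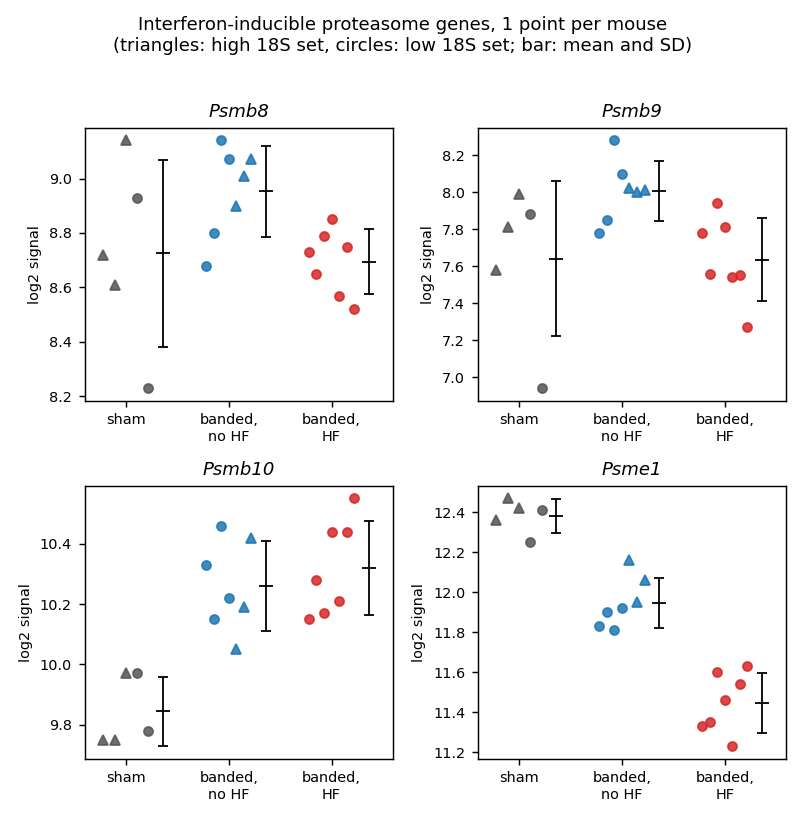
Log2 signal (y axis) of the 4 inducible proteasome genes in each mouse by group (x axis); each point is 1 array (triangles, high 18S set; circles, low 18S set), and bars mark the group mean and standard deviation. The Psme1 groups are stepped at 12.38, 11.95 and 11.45, both banded groups of Psmb10 lie above sham, and Psmb8 and Psmb9 overlap between all groups.

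Within each array, the inducible subunit was set against the constitutive subunit it replaces, as a description without a test. The log2 difference Psmb10 minus Psmb7 was 0.44 higher in non-failing and 0.65 higher in failing mice than in sham, and failing and sham mice did not overlap. Psmb9 minus Psmb6 was 0.48 and 0.22 higher, and Psmb8 minus Psmb5 0.14 and 0.03 higher. In these last pairs the groups overlapped. In failing hearts the pair with the largest value was Psmb10 and Psmb7, and in non-failing hearts the values of that pair and of Psmb9 and Psmb6 were close.

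The alpha and beta rings of the core differed in their counts. By their brightest probe sets, none of the 7 alpha genes passed in any comparison in limma, with 0, 1 and 0 at an unadjusted p under 0.05. Their median difference from sham was 0.03 in both banded groups. A dimmer Psma5 probe set, picked after its values were seen, differed from sham by 0.14 in non-failing and 0.26 in failing hearts. Dimmer probe sets of Psma1, Psma3, Psma6 and Psma7 that passed the filter differed from sham by -0.54, -0.62, -0.15 and -0.13 in failing hearts. Those of Psma1 and Psma3 lay near the filter level, with means of 3.92 and 4.05 over all arrays. They were above 4 on 5 and 10 arrays. The dimmer sets of Psma5, Psma6 and Psma7 had means of 10.12, 12.50 and 11.39 and were above 4 on all 19 arrays. No call was made on these dimmer sets. All 7 beta genes had a negative difference in failing hearts against sham, with a median of -0.17, and 4 passed (57.1%, beside 39.3% of all tested genes). These values moved with the 18S set. Within the low set, failing minus sham was positive for Psmb1 (0.05), Psmb4 (0.05) and Psmb5 (0.02) and negative for the other 4, and within the non-failing group all 7 beta genes were lower in the low than in the high set, by -0.08 to -0.56. In non-failing hearts the median of the beta genes was -0.11 and none passed, with 2 at an unadjusted p under 0.05. The difference between the rings was not tested. In failing hearts the alpha genes ran from -0.05 for Psma2 to 0.23 for Psma4 (SE 0.09, adjusted p = 0.0517), and in non-failing hearts from -0.16 for Psma1 (adjusted p = 0.159) to 0.07 for Psma4. Psma4 was 11.82 ± 0.18 (SD, n = 5) in sham, 11.89 ± 0.18 (SD, n = 7) in non-failing and 12.05 ± 0.08 (SD, n = 7) in failing mice. It moved with the 18S set too, the low set being 0.33 above the high set in non-failing and 0.29 in sham mice. Within the low set, failing minus sham was 0.05.

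Psmb2 is a non-catalytic beta subunit. Its log2 signal was 10.87, 10.82, 10.91, 10.36 and 10.74 in sham mice, 10.17 to 10.86 (median 10.25) in non-failing mice and 9.92 to 10.16 (median 10.13) in failing mice. Every failing mouse lay below every sham mouse. Psmb2 was 1.58-fold lower in failing hearts than in sham (-0.66, SE 0.13, limma adjusted p = 0.000485). In non-failing hearts the difference was -0.30 (SE 0.13, adjusted p = 0.109), and between the banded groups -0.36 (SE 0.12, adjusted p = 0.058). Psmb3, another non-catalytic beta subunit, read 12.36, 11.99, 12.18, 11.69 and 11.96 in sham mice, 11.44 to 12.09 (median 11.64) in non-failing mice and 11.44 to 11.64 (median 11.48) in failing mice. Failing and sham mice did not overlap for this gene either. It was 1.44-fold lower in failing hearts (-0.53, SE 0.12, adjusted p = 0.00159) and differed by -0.29 (SE 0.12, adjusted p = 0.0972) in non-failing hearts. A second Psmb3 probe set gave -0.24 in failing and -0.15 in non-failing hearts against sham, the same direction with smaller values.

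The levels of both genes followed the 18S set within the non-failing group. Psmb2 was 10.17, 10.17, 10.25 and 10.21 in non-failing mice 1 to 4, of the low set, and 10.76, 10.68 and 10.86 in mice 5 to 7, of the high set. Psmb3 was 11.49, 11.63, 11.64 and 11.44 against 11.98, 11.95 and 12.09. In neither gene did the sets overlap within the non-failing group, where the low set was 0.56 and 0.45 below the high set. Non-failing mice 5 to 7 were also the arrays with the low BioC control. Within this group the 18S and BioC controls cannot be told apart. Among all 47 genes the same set difference had a median of -0.11, was below -0.3 in 5 and above 0.3 in 2. Failing mice were all in the low set, and against the 2 sham mice of that set the difference was -0.47 for Psmb2 and -0.32 for Psmb3. With the 18S set as a block, failing hearts were still lower than sham (-0.38, adjusted p = 0.00131, and -0.28, adjusted p = 0.0112), and non-failing hearts now passed as well (-0.22, adjusted p = 0.0292, and -0.22, adjusted p = 0.0327). With the actin difference as a covariate neither gene passed in failing hearts (-0.43, adjusted p = 0.0632, and -0.32, adjusted p = 0.138). Without sham mouse 4 or non-failing mouse 7, both genes passed in non-failing hearts (-0.40 and -0.37 for Psmb2, -0.37 and -0.35 for Psmb3). Psmb2 passed between the banded groups without any one of sham mouse 4 or non-failing mice 1 to 4 (-0.40 to -0.36). Those 4 non-failing mice are the low 18S arrays of their group. With the 18S set as a block this Psmb2 difference was -0.16 (limma adjusted p = 0.151), and within the low set -0.12 (0.427). In 4 other alternative runs, among them the actin covariate (-0.36, 0.0375), it passed.

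Of the cutting subunits, Psmb6, with caspase-like activity, read 12.34, 12.44, 12.42, 12.26 and 12.22 in sham mice, 12.10 to 12.30 (median 12.23) in non-failing mice and 12.01 to 12.25 (median 12.11) in failing mice. It was 1.17-fold lower in failing hearts (-0.23, SE 0.06, limma adjusted p = 0.00339), and failing and sham mice overlapped. Psmb7, with trypsin-like activity, read 12.67, 12.85, 12.80, 12.63 and 12.74 in sham mice, 12.60 to 12.89 (median 12.73) in non-failing mice and 12.45 to 12.67 (median 12.57) in failing mice. It was 1.13-fold lower in failing hearts (-0.17, SE 0.06, adjusted p = 0.0266), with the highest failing mouse inside the sham range. Psmb5, with chymotrypsin-like activity and the target of bortezomib, read 12.42, 12.38, 12.49, 12.25 and 12.34 in sham mice, 12.34 to 12.58 (median 12.49) in non-failing mice and 12.26 to 12.42 (median 12.31) in failing mice. Its difference in failing hearts was -0.06 (95% interval -0.18 to 0.06, adjusted p = 0.417). Within the low 18S set Psmb6 and Psmb7 no longer passed (-0.13, adjusted p = 0.207, and -0.12, 0.256), nor did they with the actin covariate. Blocking by 18S set ended the Psmb7 call (-0.11, adjusted p = 0.183), as did leaving out sham mouse 2 or 3 or failing mouse 1.

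The structural beta subunits Psmb1 and Psmb4 did not pass. Psmb1 differed from sham by 0.04 in non-failing and -0.03 in failing hearts, and Psmb4 by -0.17 and -0.16 (adjusted p = 0.307 and 0.237). For Psmb4 sham mice 4 and 5, of the low 18S set, read 13.16 and 13.37, below the 13.66, 13.60 and 13.63 of sham mice 1 to 3.

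**Figure D3:**
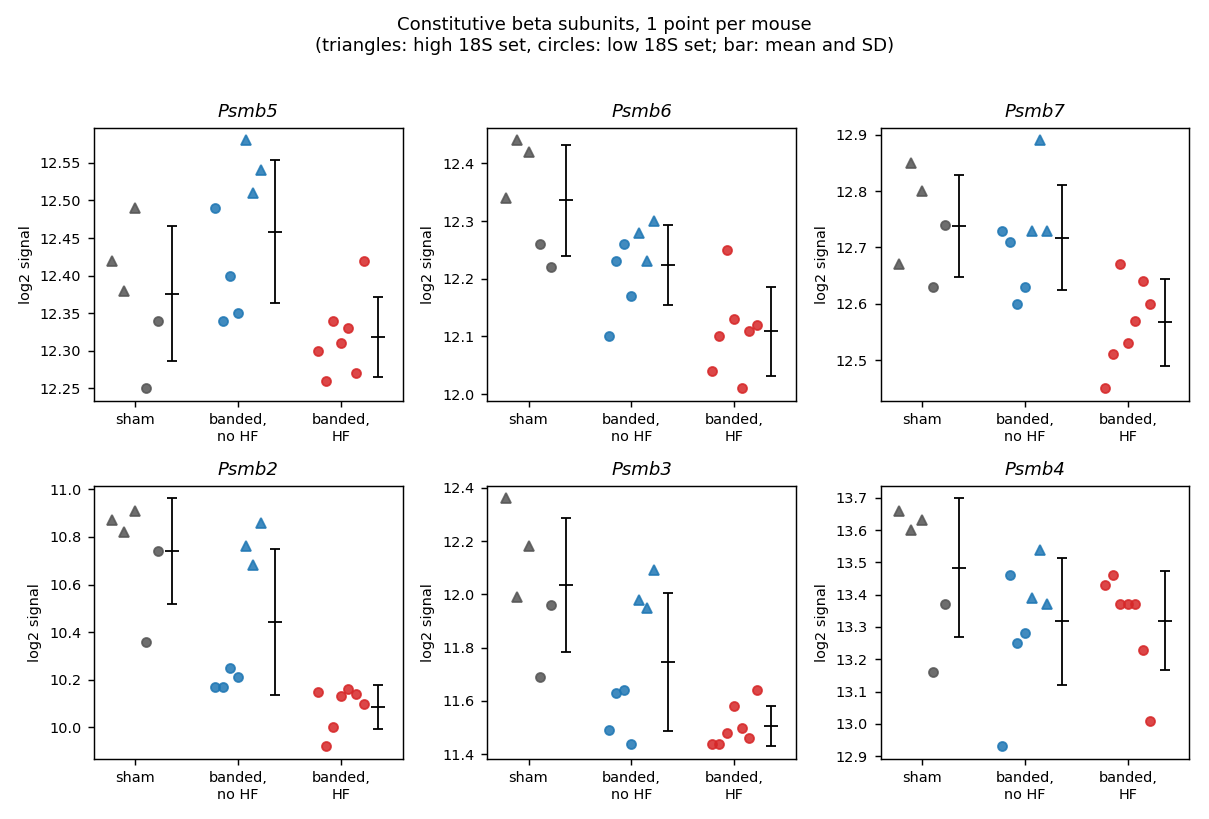
Log2 signal (y axis) of beta subunits of the 20S core in each mouse by group (x axis); each point is 1 array (triangles, high 18S set; circles, low 18S set), and bars mark the group mean and standard deviation. For Psmb2 and Psmb3 the failing mice lie below all sham mice, and the non-failing mice form a lower set of 4 and a higher set of 3.

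Of 8 lid genes of the 19S particle, 2 were higher in non-failing hearts (25%, beside 17.4% of all tested genes), and 2 were higher and 1 lower in failing hearts (37.5%, beside 39.3%), which is near the background. Of the 6 ATPases, Psmc2 alone passed, in failing hearts (-0.17, SE 0.06, limma adjusted p = 0.0347), and of the 3 base scaffold and receptor genes (Psmd1, Psmd2 and Psmd4) none passed, with 0 and 1 at an unadjusted p under 0.05 in the comparisons with sham. Between the banded groups none of the 17 passed, with 2 at an unadjusted p under 0.05. The 19S median was 0.07 in failing hearts, beside 0.01 over all tested genes.

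Psmd7, a lid subunit that pairs with the deubiquitinase Psmd14, read 10.90, 11.06, 11.05, 11.32 and 11.32 in sham mice, 11.28 to 11.47 (median 11.37) in non-failing mice and 11.40 to 11.61 (median 11.50) in failing mice. All failing mice lay above all sham mice, and sham mice 4 and 5, of the low 18S set, lay above the other sham mice. Psmd7 rose 1.29-fold in failing hearts (0.36, SE 0.07, limma adjusted p = 0.00044) and 1.17-fold in non-failing hearts (0.23, SE 0.07, adjusted p = 0.0301). Psmd8, another lid subunit, read 11.34, 11.20, 11.33, 11.20 and 11.53 in sham mice, 11.22 to 11.76 (median 11.66) in non-failing mice and 11.61 to 11.95 (median 11.71) in failing mice. Failing and sham mice did not overlap, and non-failing and sham mice did. It rose 1.33-fold in failing hearts (0.41, SE 0.09, adjusted p = 0.00127) and 1.21-fold in non-failing hearts (0.28, SE 0.09, adjusted p = 0.0355).

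The calls of these lid genes in non-failing hearts were fragile. That of Psmd7 was lost without any one of sham mice 1, 2 and 3 or non-failing mice 1 and 3 (0.17 to 0.27 over all left-out arrays, adjusted p up to 0.0992). That of Psmd8 was lost without any one of sham mice 1 to 4 or non-failing mice 1, 3, 4, 6 and 7 (0.25 to 0.34, adjusted p up to 0.0976). In failing hearts no left-out array ended either call. Within the low 18S set alone the failing hearts gave 0.17 (adjusted p = 0.0729) for Psmd7 and 0.37 (adjusted p = 0.0725) for Psmd8, and Psmd8 did not pass with the actin covariate (0.26, adjusted p = 0.118).

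Psmd6, a lid subunit, was lower in failing hearts by its chosen probe set (-0.27, SE 0.09, limma adjusted p = 0.0209), while its other probe set gave 0.02, and the mean of both did not pass (-0.13, adjusted p = 0.128). That call was also lost without sham mouse 1 or 2, and that of Psmc2 without any one of sham mice 1 to 3 or failing mice 3, 6 and 7. With the 18S set as a block neither passed (-0.13, adjusted p = 0.236, for Psmd6 and -0.07, adjusted p = 0.315, for Psmc2), and with the actin covariate the values were -0.03 and -0.04. Psmd14, the deubiquitinase of the lid, differed by 0.18 in failing hearts (95% interval 0.02 to 0.33, adjusted p = 0.0646). Psmd4, a ubiquitin receptor, differed by 0.07 in both banded groups. Psmd3, of the lid, differed by 0.18 in non-failing (adjusted p = 0.102) and 0.01 in failing hearts, and by -0.17 between the banded groups (adjusted p = 0.122). Of the ATPases besides Psmc2, Psmc4 had the largest difference in failing hearts (0.17, adjusted p = 0.182), followed by Psmc6 (0.13, adjusted p = 0.0693), while Psmc1, Psmc3 and Psmc5 lay between -0.05 and 0.04.

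**Figure D4:**
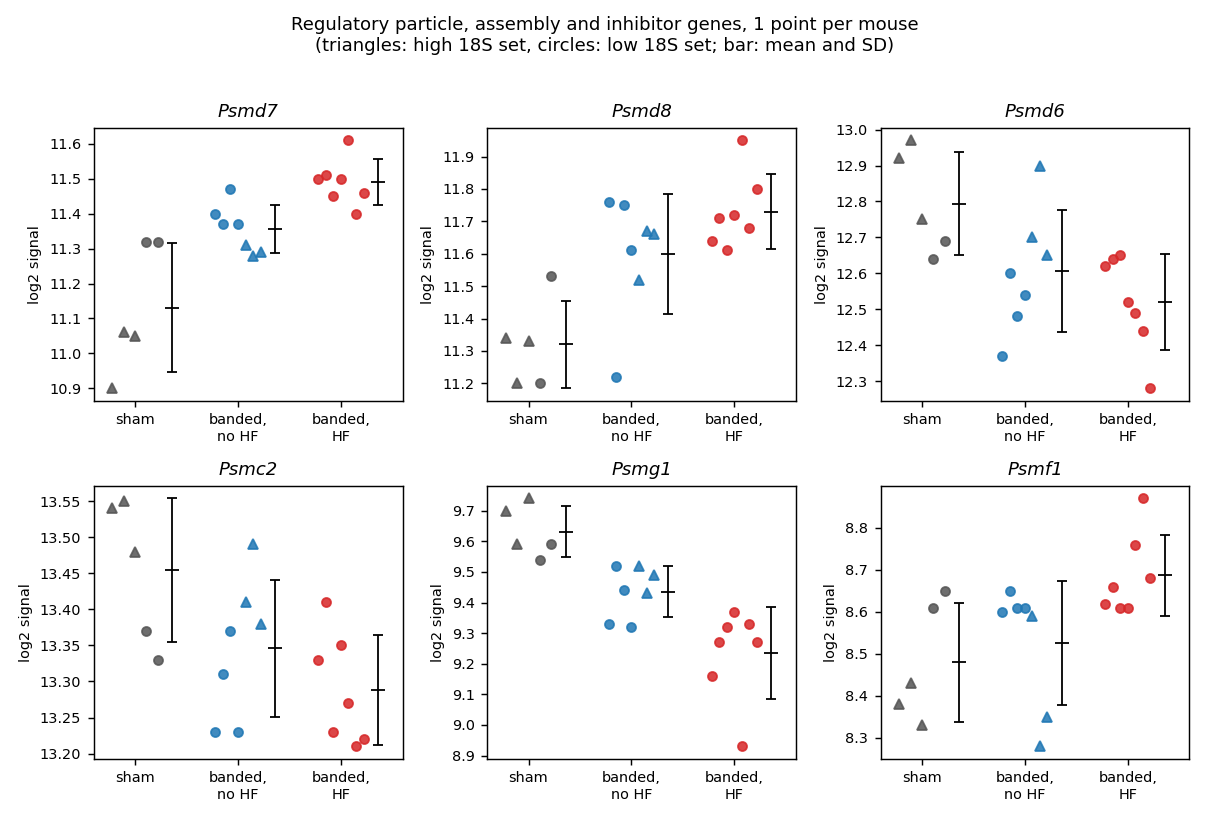
Log2 signal (y axis) of 19S, assembly and inhibitor genes in each mouse by group (x axis); each point is 1 array (triangles, high 18S set; circles, low 18S set), and bars mark the group mean and standard deviation. For Psmd7 and Psmd8 all failing mice lie above all sham mice, and for Psmg1 all failing mice lie below all sham mice.

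Assembly chaperones help to build the core and the base. Psmg1, which with Psmg2 guides formation of the alpha ring, read 9.70, 9.59, 9.74, 9.54 and 9.59 in sham mice, 9.32 to 9.52 (median 9.44) in non-failing mice and 8.93 to 9.37 (median 9.27) in failing mice. All banded mice lay below all sham mice. Psmg1 was 1.31-fold lower in failing hearts (-0.39, SE 0.07, limma adjusted p = 0.000271). It differed by -0.19 (SE 0.07, adjusted p = 0.0662) in non-failing hearts and by -0.20 (SE 0.06, adjusted p = 0.0586) between the banded groups. Without failing mouse 5 the non-failing hearts passed (-0.19, adjusted p = 0.0219), without non-failing mouse 1 the banded groups did (-0.22, adjusted p = 0.0468), and with the actin covariate the failing hearts did not (-0.23, adjusted p = 0.0541).

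Psmg2 read 10.60, 10.69, 10.52, 10.68 and 10.62 in sham mice, 10.47 to 10.56 (median 10.51) in non-failing mice and 10.35 to 10.55 (median 10.52) in failing mice. It was 1.09-fold lower in failing hearts (-0.12, SE 0.05, limma adjusted p = 0.0462), the groups overlapped, and 16 of 19 left-out arrays ended the call (adjusted p up to 0.116). Of the other 5 chaperones (Psmg3, Psmg4, Psmd5, Psmd9 and Psmd10) none passed in any comparison. Their differences in failing hearts ran from -0.26 for Psmg4, which had an unadjusted p of 0.0338, to 0.10 for Psmd9.

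Psmf1, the PI31 protein named as an inhibitor of the core, read 8.38, 8.43, 8.33, 8.61 and 8.65 in sham mice, 8.28 to 8.65 (median 8.60) in non-failing mice and 8.61 to 8.87 (median 8.66) in failing mice. It was 1.15-fold higher in failing hearts (0.21, SE 0.08, limma adjusted p = 0.0442), and sham mice 4 and 5, of the low 18S set, reached the failing range. The call was lost without any one of sham mice 1 to 3, non-failing mouse 5 or failing mice 2, 5, 6 and 7, and the difference was 0.06 within the low 18S set. Psme3, which forms the nuclear PA28 gamma cap, differed by 0.13 in non-failing hearts (adjusted p = 0.278), while a dimmer probe set of it, chosen after its values were seen, differed by 0.91 (unadjusted p = 0.0034). Psme4, the PA200 cap, differed by -0.12 and -0.09 from sham. Psmc3ip, a meiotic protein and not a subunit, was lower in failing hearts (-0.33, SE 0.11, adjusted p = 0.0215), and the call was lost without sham mouse 4 or 5.

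The genes around the proteasome were read from lists chosen with earlier results known. Unlike the proteasome genes, single calls in these lists, here and in the next paragraph, were not followed through the alternative runs. Of 20 measured partners (assembly, shuttle, deubiquitinase and regulator genes), 1 was higher in non-failing hearts (5%, beside 17.4% of all tested genes), Rad23b, a shuttle that carries ubiquitinated proteins to the 19S particle (0.67, SE 0.14, limma adjusted p = 0.00292). In failing hearts 4 were higher and 2 lower (30%, beside 39.3% of all tested genes). The 3 with the largest differences were Zfand2a, an arsenite-inducible proteasome-binding protein (0.51, SE 0.13, adjusted p = 0.0055), Vcp, the ATPase that extracts ubiquitinated proteins (0.24, SE 0.07, adjusted p = 0.00889), and its cofactor Nploc4 (0.23, SE 0.08, adjusted p = 0.02). Zfand2a was also higher in failing than in non-failing hearts (0.41, SE 0.12, adjusted p = 0.0434). The median of the list was 0.05 in non-failing and 0.03 in failing hearts, beside 0.02 and 0.01 over all tested genes. Nfe2l1, the transcription factor known to raise proteasome genes when the proteasome is inhibited, was named after its values were seen and differed by 0.09, -0.01 and -0.10 in the comparisons, none past the threshold. Of 6 genes for free ubiquitin and its activation, Uba6 alone was measured, and it did not pass.

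Of 23 measured genes of antigen presentation and interferon response, 8 were higher in non-failing hearts than in sham (34.8%, beside 17.4% of all tested genes), and 10 were higher and 1 lower in failing hearts (47.8%, beside 39.3%). Led by size, the non-failing hearts showed Irf8, a myeloid transcription factor (0.69, SE 0.12, limma adjusted p = 0.000989), Stat2, of interferon signalling (0.65, SE 0.20, adjusted p = 0.0335), and Tap1, the peptide transporter encoded beside Psmb9 (0.57, SE 0.19, adjusted p = 0.0482). The SD of Tap1 was 0.55 in sham, 0.24 in non-failing and 0.26 in failing mice. The failing hearts showed Ifit3, an interferon-induced gene (0.67, SE 0.18, adjusted p = 0.00539), Irf8 (0.63, SE 0.12, adjusted p = 0.000543) and the class I gene H2-D1 (0.63, SE 0.19, adjusted p = 0.0117). Ifngr2, a chain of the interferon gamma receptor, was the lower gene (-0.41, SE 0.10, adjusted p = 0.00479). The median of the list was 0.27 in non-failing and 0.20 in failing hearts, beside 0.02 and 0.01 over all tested genes. Between the banded groups 1 gene passed, Irf1, a transcription factor that acts on Psmb8 and Psmb9 promoters, which was lower in failing hearts (-0.32, SE 0.08, adjusted p = 0.0227).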

How the data were processed

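Left ventricular RNA of 19 mice was measured on Affymetrix arrays. The values are log2 signals as deposited. Per the submitters' processing notes they come from GCRMA, of a version not given in the sources used here. This method corrects background by probe sequence, normalises across arrays and summarises probe sets, so dim sets are drawn to a floor and their changes are compressed. Array number limits the precision; counts and depth do not apply.

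Of 45101 probe sets, 34958 had 1 symbol in the platform annotation, 932 had several and 9211 were not listed. Genes needed a log2 signal above 4 in at least 5 arrays, and the brightest probe set represented each of 10733 genes. A single limma fit (limma 3.58.1, R 4.3.3, lmFit and eBayes) held 3 group means, with Benjamini-Hochberg adjustment. The fit was tested on simulated data for failing against sham hearts, over 10733 genes. It recovered 63% of changes of 0.5 and 93% of changes of 1 on the log2 scale, with 10 false calls of 166. The measured data gave 4220 calls in that comparison. The rates therefore hold for the simulated data and were not tested for data with that many calls.

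Single sham values, with the range and median of each banded group, are given for a set of genes. These are the inducible genes, Psmb5, Psmb6 and Psmb7, and the 2 largest calls of each other class in each comparison. The 3 largest calls of each pathway list are named. Members and lists were chosen with earlier results of these data known. Alternatives changed the filter, the choice of probe set, the normalization, the arrays and the blocks, with the 18S set, the animal ID series and the actin controls among them, and left out each array in turn. Promoter sequences are RefSeq's, read with Python 3.11.15.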

Additional observations from a re-analysis of the deposited data

Results flagged for a closer look

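In 141 groups of values (47 genes in 3 groups), 5 values, on 3 arrays, lay far from the rest of their group by Dixon's criterion, which chance alone meets in about 1 in 20 groups. In failing mouse 5, Psma6 was 12.99 on the log2 scale (12.71 to 12.80 in the other failing mice), Psmc1 was 11.69 (11.36 to 11.51) and Psmg2 was 10.35 (10.48 to 10.55). In failing mouse 3, Psme3 was 9.75 (9.46 to 9.58). In non-failing mouse 2, Psmd1 was 11.79 (11.96 to 12.06). None of these genes passed in a comparison of its group except Psmg2, whose call in failing hearts was lost without failing mouse 5 (-0.10, limma adjusted p = 0.0842).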

How the results depend on the processing

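No paired analysis was possible because the labels give no replicate numbers that groups share. Where a value below moved, the cause was not tested. The 3 calls of Psme1 and the call of Psmb10 in failing hearts were kept in every alternative run, and no called proteasome gene reversed. Calls of the pathway lists and cell markers were not followed gene by gene in these runs. The arrays limit what small changes can be seen: the median SE was 0.105 against sham and 0.0955 between the banded groups. Within the 18S sets and ID series few arrays remain, and with 1 sham array in each of the other ID series no separate fit was run there. The settings of the high 18S set and the first ID series were chosen after seeing the data. The median of all tested genes moved by at most 0.1 under the scaling alternatives.

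For non-failing hearts against sham, the count of higher members (3) was 1 with equal array medians, with the 2 compared groups alone and with the actin covariate, 0 in the low 18S set and 5 in the first ID series. The count of lower members (1) was 2 with quantile normalization repeated, in the high 18S set and in the first ID series, and 3 with equal medians and with the 18S block. Core calls (0) were 1 with equal medians, in the high 18S set and in the first ID series, and 2 with the 18S block. The 19S calls (2) were 1 with no filter, 0 with equal medians, with the 2 groups alone, with the actin covariate and in the low 18S set, and 4 in the high 18S set and the first ID series. Inducible calls (2) were 1 in the low and in the high 18S set. Left-out arrays gave 1 to 3 higher and 1 to 3 lower members, 0 to 2 core calls, 0 to 2 of 19S, and an inducible median of 0.14 to 0.39. The share of all tested genes that passed moved too, from 17.4% to 3.2% in the low 18S set and 11.2% with the actin covariate. It was 14.4% with the 2 groups alone, 8.22% with no filter and 21.9% with the 18S block. The high 18S set gave 16.9% and the first ID series 20.3%.

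For failing hearts against sham, the count of higher members (4) was 7 with the mean of probe sets and 8 with the 18S block. The count of lower members (10) was 1 with the actin covariate and 5 in the low 18S set. Core calls (4) were 1 with the actin covariate. The 19S calls (4) were 2 with the actin covariate, in the low 18S set and in the first ID series. The core median (-0.04) was -0.10 with the mean of probe sets, 0.02 in the low 18S set and -0.11 in the first ID series. The 19S median (0.07) was 0.12 with the 18S block and 0.00 in the first ID series. The inducible median (-0.02) was 0.23 with the actin covariate and 0.17 in the low 18S set. Left-out arrays gave 6 to 10 lower members, 2 to 5 of 19S, and an inducible median of -0.17 to 0.08. The share of all tested genes that passed, 39.3% as reported, was 25.2% with the actin covariate and 24.9% in the low 18S set. It was 33.6% with the 18S block, 40.9% with the mean of probe sets and 40.2% in the first ID series.

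Between the banded groups, the count of higher members (0) was 3 with the 18S block, 1 with the ID block and 2 in the first ID series. The count of lower members (1) was 2 with equal medians, with the 2 groups alone and with the ID block, 3 with the actin covariate and 10 in the first ID series. Core calls (0) were 1 with equal medians, the 18S block, the ID block and the actin covariate, and 7 in the first ID series. The 19S calls (0) were 2 with the 18S block and in the first ID series, and 1 with the ID block. Inducible calls (1) were 2 with the 2 groups alone. In the first ID series the core median was -0.10 and the 19S median -0.05. Left-out arrays gave 1 to 3 lower members, 0 to 1 core calls and 1 to 2 inducible calls. The share of all tested genes that passed, 9.48% as reported, was 20.5% in the first ID series and 12% with the actin covariate. It was 11.9% with the ID block, 8.92% with the 18S block, 10.3% with the 2 groups alone and 9.31% with equal medians.

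Over all tested genes, equal medians gave 878 higher and 1064 lower calls in non-failing hearts and 1869 and 2471 in failing hearts, and repeated quantile normalization gave 902 and 926, and 1794 and 2586, against 1164 and 701, and 2193 and 2027, as reported.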
